A study of Mus musculus with 12 samples.

Results

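The genes of the matrix proteases and their TIMP inhibitors were followed in NIH 3T3, a mouse embryo fibroblast line that grows indefinitely in culture. The 9 genes were Mmp2, Mmp3, Mmp11, Mmp14, Adamts1, Adamts5, Timp1, Timp2 and Timp3. They were chosen by name, with earlier results of these data known. They were matched by symbol to the Ensembl identifiers of the count files, which list 49671 genes. The RNA-seq series holds 12 libraries in 4 groups of 3. Cells were transfected with AllStars negative control siRNA or with a single siRNA that targets the Lap2 isoforms together, starved overnight in 0.3% FBS, and then kept in 0.3% FBS or stimulated with 15% FBS for 45 min. No cells without siRNA were analysed here, and with 1 siRNA sequence the loss of Lap2 and any other action of that siRNA cannot be told apart. The question was how the depletion of Lap2, a nuclear lamina-associated protein, alters the level of these transcripts at rest and after serum.

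Matrix metalloproteinases (MMPs) are zinc endopeptidases that fibroblasts make as inactive precursors and that cleave collagens, gelatin and other proteins of the extracellular matrix. ADAMTS proteases are secreted relatives that carry thrombospondin motifs and cut proteoglycans such as versican and aggrecan. TIMPs are small secreted proteins that bind the active site of these enzymes, so matrix turnover depends on the levels of proteases and inhibitors together. In fibroblasts the membrane-anchored protease encoded by Mmp14 activates the gelatinase encoded by Mmp2, and the product of Timp2 takes part in that complex as well as inhibiting it.

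The transcript of Tmpo, the gene that encodes Lap2, was at 2775, 2805 and 2885 normalized counts in starved cells with control siRNA and at 982, 1175 and 1093 in starved Lap2-depleted cells. After serum it was at 3264, 3243 and 3019 in control cells and at 767, 745 and 607 in Lap2-depleted cells. The libraries labelled Lap2 siRNA were thus below the others in each serum condition, at 38.4% of the control level in 0.3% FBS and 22.2% in 15% FBS. Normalized counts here are read counts per library after TMM scaling, set to the average library of the 12. Total counts were 18026298 to 26265253 per library. The summed level of 8 fibroblast markers was 36665 to 41007 CPM (counts scaled for the library total) with control siRNA and 26786 to 32555 CPM with Lap2 siRNA, so the Lap2-depleted libraries were lower in every case, and the part of this in the results was not tested. The markers did not all move together. With Lap2 siRNA in 0.3% FBS 5 of the 8 were called lower and 2, Fn1 (log2FC 0.37) and S100a4 (0.46), higher. The S100a4 libraries of the 2 siRNA groups overlapped there. Of all genes tested 18.6% were called lower and 17.8% higher. In 15% FBS 6 of the 8 were called lower, Fn1 (-0.23) among them, and none higher, beside 12.1% and 11.4%. Markers of other cell types were near 0: at most 1.84 CPM summed over 4 epithelial markers, 0.803 CPM over 3 endothelial markers and 4.66 CPM over 5 leukocyte and macrophage markers. Epcam and Adgre1 had at most 1 count, and Kdr at most 3 counts, in any library. Cd68 had 22 to 54 counts per library. Csf1r, at 6 to 31 counts, was called higher with Lap2 siRNA in 0.3% FBS (log2FC 1.46, edgeR adjusted p = 0.00852). In these bulk samples fewer cells that express a gene and less RNA per cell cannot be told apart.

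Of the 9 genes, 8 passed the filter (a count over 1 in 3 or more libraries) and were tested with edgeR's quasi-likelihood test, adjusted over all 18668 genes tested. In serum-starved cells 7 of the 8 genes fell with Lap2 siRNA and none rose. In 15% FBS 6 of the 8 fell. A gene was called at an adjusted p under 0.05, and by the same rule 18.6% of all genes tested were called lower and 17.8% higher in 0.3% FBS, against 12.1% lower and 11.4% higher in 15% FBS. The median log2 fold change (log2FC) of the 8 genes was -0.88 in 0.3% FBS and -0.33 in 15% FBS, with medians of 0.01 and 0.02 over all genes tested. The exception in both conditions was Timp1, and in 15% FBS also Adamts5.

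**Figure D1:**
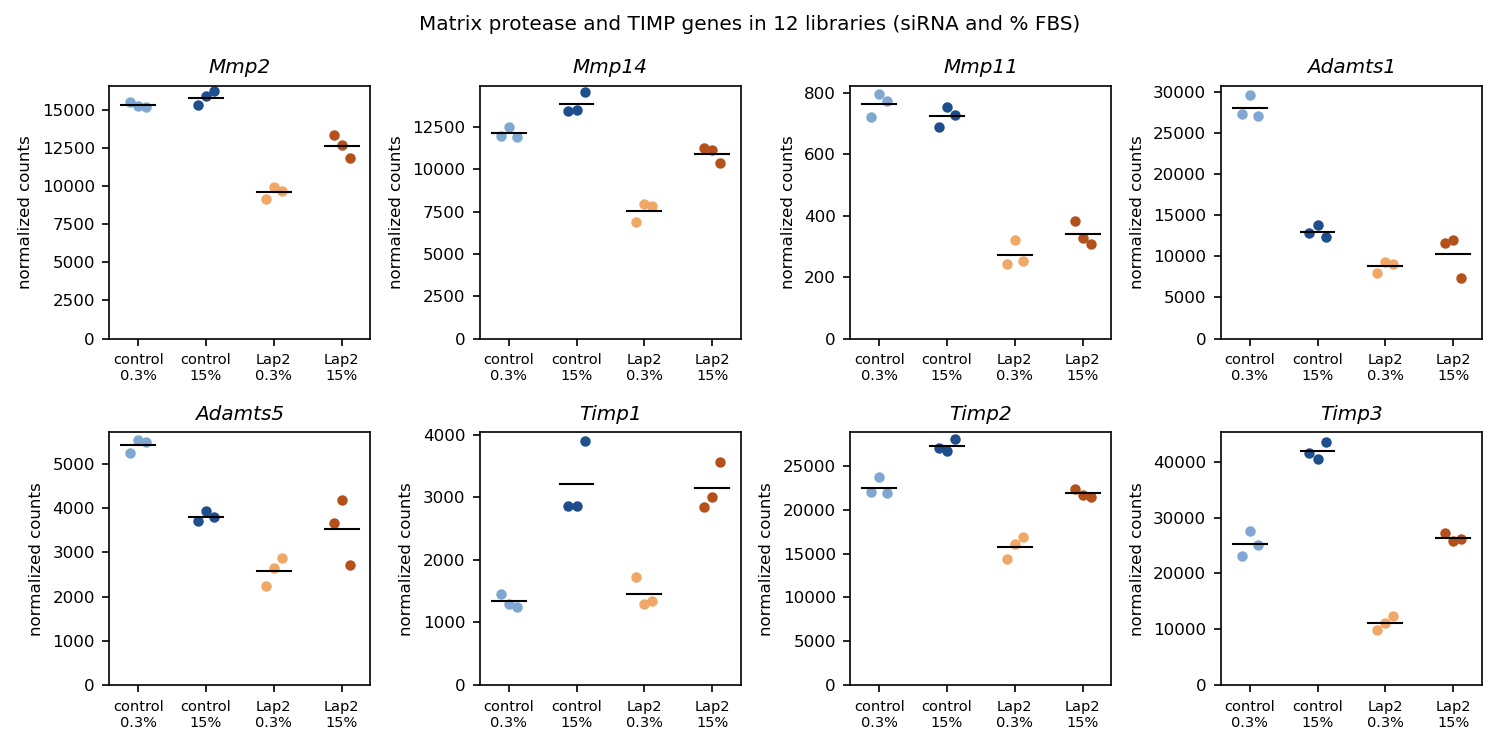
Normalized counts (y axis, linear from 0) of the 8 tested genes in the 12 libraries, grouped on the x axis by siRNA and FBS. Each point is a library and each bar the mean of 3; the Lap2-depleted points in 0.3% FBS lie below the serum-starved control points for every gene except Timp1.

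The promoter sequences show how differently these genes begin. RefSeq (GRCm38.p6) windows of the 250 bases before the annotated start were held for 7 of the 9 genes, and Mmp2 and Adamts5 were not matched. The 4 shown are those of Adamts1 and Mmp11, the genes with the deepest falls in serum-starved Lap2-depleted cells, of Timp1, which was not called there, and of Mmp3, which was almost without reads. None of these windows overlaps an annotated exon in GENCODE M21. The Mmp11 window nevertheless lies inside the span that GENCODE M21 gives this gene, which starts further upstream, at 75936496. Capitals mark an AP-1 motif (TGANTCA) or a TATA motif (TATAAA), and sequences run 5′ to 3′ on the strand of the gene.
Adamts1, minus strand, chr16:85803114-85803363: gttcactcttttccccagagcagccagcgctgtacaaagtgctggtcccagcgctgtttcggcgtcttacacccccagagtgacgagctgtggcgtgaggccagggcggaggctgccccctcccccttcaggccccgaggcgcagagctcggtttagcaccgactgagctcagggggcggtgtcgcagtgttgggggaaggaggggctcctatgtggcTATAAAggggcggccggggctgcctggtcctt
Mmp11, minus strand, chr10:75932503-75932752: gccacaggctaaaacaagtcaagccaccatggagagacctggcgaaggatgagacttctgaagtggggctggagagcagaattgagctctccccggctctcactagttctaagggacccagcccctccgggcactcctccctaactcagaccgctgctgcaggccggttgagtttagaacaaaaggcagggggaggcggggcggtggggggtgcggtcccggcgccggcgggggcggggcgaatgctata
Timp1, plus strand, chrX:20869916-20870165: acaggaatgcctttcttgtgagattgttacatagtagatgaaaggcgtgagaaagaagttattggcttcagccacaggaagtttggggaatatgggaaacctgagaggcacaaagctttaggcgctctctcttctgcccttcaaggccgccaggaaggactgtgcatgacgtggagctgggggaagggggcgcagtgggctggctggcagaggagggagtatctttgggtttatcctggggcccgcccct
Mmp3, plus strand, chr9:7445572-7445821: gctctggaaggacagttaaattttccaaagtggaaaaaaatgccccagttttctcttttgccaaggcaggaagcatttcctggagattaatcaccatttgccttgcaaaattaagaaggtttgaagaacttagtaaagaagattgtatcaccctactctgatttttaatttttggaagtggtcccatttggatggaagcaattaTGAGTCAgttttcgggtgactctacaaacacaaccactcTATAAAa

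Adamts1 carried the TATA motif 32 to 27 bases before its start and Mmp3 7 to 2 bases before its start, and these were 2 of the 7 windows. Over 32851 promoter windows of the same length, searched on both strands, 12.4% held the TATA motif. The AP-1 motif was found in the Mmp3 window alone, 46 to 40 bases before the start, and in 6.75% of all windows. The CArG box, the sequence bound by the serum response factor SRF, was in none of the 7 windows and in 1.47% of all windows. No match says only that these letters are not in this stretch. Among the windows not shown, 2 are not wholly upstream of the gene in GENCODE M21. The Timp3 window ends at 86300411, past the start of that gene at 86300372. The Timp2 window, 118355412-118355661 on the minus strand, lies inside the span of that gene, which begins at 118355740. The windows differed in base composition, from a GC content of 37.6% in Mmp3 to 68% in Timp2, with a median of 52.4% over all windows.

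Mmp14 encodes the membrane-anchored collagenase MT1-MMP and lies on chromosome 14 (ENSMUSG00000000957, mm10, 54431612-54441265, plus strand). It was at 11988, 12485 and 11912 normalized counts in serum-starved control cells and at 6887, 7958 and 7861 in serum-starved Lap2-depleted cells. After 15% FBS the values were 13469, 13514 and 14555 in control cells and 11273, 11181 and 10373 in Lap2-depleted cells. The Lap2-depleted libraries were below the control libraries in each serum condition, without overlap. The log2FC was -0.68 (SE 0.06, edgeR adjusted p = 1.51e-10) in 0.3% FBS and -0.34 (SE 0.06, adjusted p = 0.000103) in 15% FBS, which are 62.4% and 79.0% of the control level.

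Mmp2 encodes the gelatinase that MT1-MMP activates and lies on chromosome 8 (ENSMUSG00000031740, 92827291-92853420, plus strand). Its normalized counts were 15482, 15243 and 15184 in serum-starved control cells and 9177, 9923 and 9658 in serum-starved Lap2-depleted cells. In 15% FBS they were 15327, 15866 and 16202 in control cells and 13351, 12672 and 11851 in Lap2-depleted cells. As for Mmp14, the groups did not overlap in either condition. The log2FC of Mmp2, -0.67 (SE 0.06, edgeR adjusted p = 4.77e-11) in 0.3% FBS and -0.32 (SE 0.06, adjusted p = 8.7e-05) in 15% FBS, was close to that of its activator.

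Timp2, on chromosome 11 (ENSMUSG00000017466, 118301069-118355740, minus strand), encodes the inhibitor that bridges these enzymes at the cell surface. It was at 21963, 23673 and 21929 normalized counts in serum-starved control cells and at 14362, 16077 and 16936 in Lap2-depleted cells. The values after serum were 26979, 26656 and 28114 in control cells and 22328, 21725 and 21502 in Lap2-depleted cells. Here again each Lap2-depleted group was below its control group. The log2FC was -0.51 (SE 0.06, edgeR adjusted p = 3.54e-08) in 0.3% FBS and -0.32 (SE 0.06, adjusted p = 0.00018) in 15% FBS.

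Mmp11 encodes stromelysin-3, an MMP that is activated by furin before secretion, and lies on chromosome 10 (ENSMUSG00000000901, 75923222-75932502, minus strand). It was the least abundant of the tested genes, at 723, 795 and 774 normalized counts in serum-starved control cells and 241, 321 and 253 in serum-starved Lap2-depleted cells. In 15% FBS it was at 689, 754 and 729 in control cells and at 385, 327 and 307 in Lap2-depleted cells. The Lap2-depleted libraries were far below the controls in both conditions. The log2FC was -1.49 (SE 0.10, edgeR adjusted p = 9.72e-14) in 0.3% FBS, or 35.5% of the control level, and -1.10 (SE 0.10, adjusted p = 2.7e-10) in 15% FBS, or 46.8%.

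Mmp3, which encodes the secreted protease stromelysin-1 and lies on chromosome 9 (ENSMUSG00000043613, 7445822-7455975, plus strand), was not tested. It had 4 counts in replicate 1 of the serum-starved control cells and 0 in the other 11 libraries. A count of 0 allows at most 3 counts, or 0.114 to 0.166 CPM in these libraries, and this limit covers counting error only. No difference in Mmp3 was detectable at this depth.

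Adamts1 and Adamts5 encode secreted proteases that cleave versican and aggrecan. They are neighbours on chromosome 16, both on the minus strand, Adamts1 (ENSMUSG00000022893) at 85793827-85803113 and Adamts5 (ENSMUSG00000022894) at 85858170-85901125, with 55056 bases between them. Adamts1 was at 27261, 29599 and 27071 normalized counts in serum-starved control cells and at 8016, 9312 and 9060 in serum-starved Lap2-depleted cells. Its fall, to 31.4% of the control level, was the deepest among the 8 genes, with a log2FC of -1.67 (SE 0.10, edgeR adjusted p = 1.07e-14). In 15% FBS it was at 12820, 13762 and 12324 in control cells and at 11613, 11989 and 7368 in Lap2-depleted cells. In that condition the 2 higher Lap2-depleted libraries were just below the controls and replicate 3 was far below them. The log2FC of -0.33 (SE 0.10, adjusted p = 0.0150) rested on single libraries. Without replicate 3 of the Lap2-depleted cells it was -0.15 (adjusted p = 0.174), and without replicate 2 of the control cells it was -0.29 (adjusted p = 0.0813). It was not called by DESeq2 (log2FC -0.34, adjusted p = 0.0913) or with total-count scaling (-0.24, adjusted p = 0.0700).

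Adamts5 followed the same order at a lower level. Serum-starved control cells had 5244, 5544 and 5490 normalized counts and serum-starved Lap2-depleted cells had 2232, 2643 and 2868, with no overlap. The log2FC was -1.07 (SE 0.10, edgeR adjusted p = 4.75e-11). After 15% FBS the control libraries were at 3711, 3926 and 3793 and the Lap2-depleted libraries at 3665, 4182 and 2723. The groups overlapped, and the log2FC of -0.11 (adjusted p = 0.455) had a range of -0.30 to 0.07 at 95% (normal approximation). Replicate 3, the lowest for Adamts1, was also the lowest of its group for Adamts5.

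Timp3, on chromosome 10 (ENSMUSG00000020044, 86300372-86349506, plus strand), encodes an inhibitor that stays bound to the matrix and also acts on ADAMTS proteases. It was at 23140, 27640 and 25183 normalized counts in serum-starved control cells and at 9915, 11151 and 12326 in serum-starved Lap2-depleted cells. In 15% FBS it was at 41633, 40540 and 43589 in control cells and at 27204, 25753 and 26095 in Lap2-depleted cells. Among the TIMPs it showed the largest decrease, with all Lap2-depleted libraries well below the controls of the same serum condition. The log2FC was -1.19 (SE 0.07, edgeR adjusted p = 4.54e-15) in 0.3% FBS, or 44.0% of the control level, and -0.67 (SE 0.07, adjusted p = 4.49e-09) in 15% FBS, or 62.9%. Exons of Syn3 overlap those of Timp3 on the other strand, and whether the counting used strand is not stated. Syn3 had at most 635 counts in any library.

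Timp1, on the X chromosome (ENSMUSG00000001131, 20870166-20874735, plus strand), encodes a soluble inhibitor that is known as a serum-inducible gene of fibroblasts and binds MT1-MMP poorly. It was at 1462, 1300 and 1249 normalized counts in serum-starved control cells and at 1733, 1289 and 1348 in serum-starved Lap2-depleted cells. The values in 15% FBS were 2870, 2862 and 3904 in control cells and 2853, 3002 and 3573 in Lap2-depleted cells. In both conditions the siRNA groups overlapped. The log2FC was 0.13 (edgeR adjusted p = 0.393) in 0.3% FBS, with a range of -0.08 to 0.33 at 95% (normal approximation), and -0.03 (adjusted p = 0.894) in 15% FBS, with a range of -0.23 to 0.17.

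**Figure D2:**
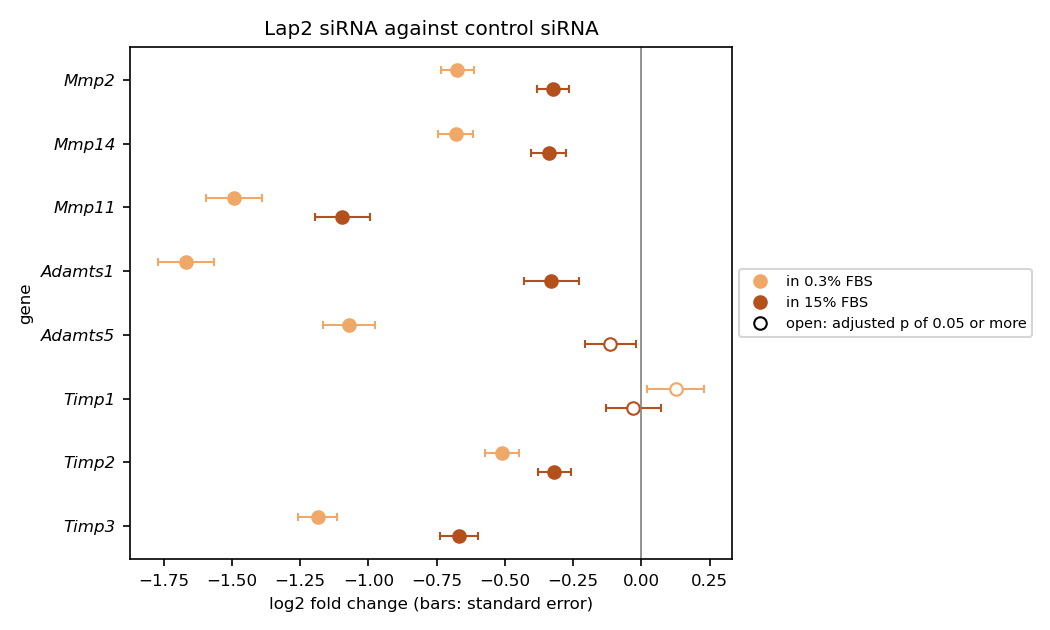
Log2 fold change of Lap2 siRNA against control siRNA (x axis) for the 8 tested genes (y axis) in 0.3% FBS (light) and 15% FBS (dark), 3 libraries per group. Bars are 1 standard error and open points have an adjusted p of 0.05 or more; only Timp1 in both conditions and Adamts5 in 15% FBS are open.

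Serum alone moved the inhibitors and the ADAMTS genes in opposite directions. In control siRNA treated cells 45 min of 15% FBS raised Timp1, Timp3, Timp2 and Mmp14 and lowered Adamts1 and Adamts5, while Mmp2 and Mmp11 were not called. That is 4 of 8 higher and 2 lower, beside 15.6% of all genes tested called higher and 13.9% lower. The median log2FC of the 8 was 0.12, with -0.01 over all genes tested.

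Timp1 had the largest rise of the 8, to 240% of its starved level, with a log2FC of 1.26 (SE 0.10, edgeR adjusted p = 7.22e-12). The lowest stimulated library, at 2862 normalized counts, was well above the highest starved library, at 1462. Timp3 rose by a log2FC of 0.73 (SE 0.07, adjusted p = 2.32e-10) and Timp2 by 0.27 (SE 0.06, adjusted p = 0.000657), without overlap of the groups. Adamts1 fell to 46.4% of its starved level, from a mean of 27977 ± 1408 to 12969 ± 730 normalized counts (SD, n = 3), with a log2FC of -1.11 (SE 0.10, adjusted p = 7.87e-11). Adamts5 fell from 5426 ± 160 to 3810 ± 109 (SD, n = 3), with a log2FC of -0.51 (SE 0.09, adjusted p = 4.75e-05). For both ADAMTS genes every stimulated library was below every starved one.

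The smaller serum changes depended on the scaling of the libraries. Mmp14 rose by a log2FC of 0.19 (SE 0.06, edgeR adjusted p = 0.0198). Without replicate 3 of the starved control cells the adjusted p was 0.0607 (log2FC 0.19), and without replicate 3 of the stimulated control cells it was 0.110 (log2FC 0.15). Scaling to total counts moved the median of all genes by -0.21 in this comparison, and there Mmp14 was at -0.02 and Timp2, at 0.07 (adjusted p = 0.427), was no longer called. Mmp2, at 0.05 (adjusted p = 0.640), was then called lower at -0.16 (adjusted p = 0.0286), and Mmp11, at -0.08 (adjusted p = 0.602), was called lower at -0.29 (adjusted p = 0.0136). The directions of Timp1, Timp3, Adamts1 and Adamts5 were those given above under every scaling tried.

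In Lap2-depleted cells serum raised 7 of the 8 genes and lowered none, beside 18.3% of all genes tested called higher and 14.9% lower. The median log2FC of the 8 was 0.46, with 0.00 over all genes tested. Timp3 rose the most, by a log2FC of 1.24 (SE 0.07, edgeR adjusted p = 6.23e-16), from 11131 ± 1205 to 26351 ± 759 normalized counts (SD, n = 3). Timp1 rose by 1.11 (SE 0.10, adjusted p = 1.71e-10). Mmp14, Timp2 and Mmp2 rose by 0.53, 0.47 and 0.40 (adjusted p = 3.06e-08, 2.22e-07 and 2.12e-06), with no overlap between starved and stimulated libraries.

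The ADAMTS genes did not fall in Lap2-depleted cells. Adamts5 was higher after serum, with a log2FC of 0.45 (SE 0.10, edgeR adjusted p = 0.000305), although replicate 3 at 2723 normalized counts overlapped the starved libraries. With total-count scaling this call was lost (log2FC 0.22, adjusted p = 0.0650). Adamts1 was at 0.23 (adjusted p = 0.0814), at -0.0002 with total-count scaling, and without replicate 3 of the stimulated cells it was called higher at 0.41 (adjusted p = 2.83e-05). Mmp11 rose by 0.32 (SE 0.11, adjusted p = 0.0209), but its groups overlapped. The Mmp11 call was lost without replicate 1 (0.22, adjusted p = 0.133) or replicate 3 (0.25, adjusted p = 0.114) of the starved cells, without replicate 1 of the stimulated cells (0.22, adjusted p = 0.171), and with total-count scaling (0.09, adjusted p = 0.562).

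**Figure D3:**
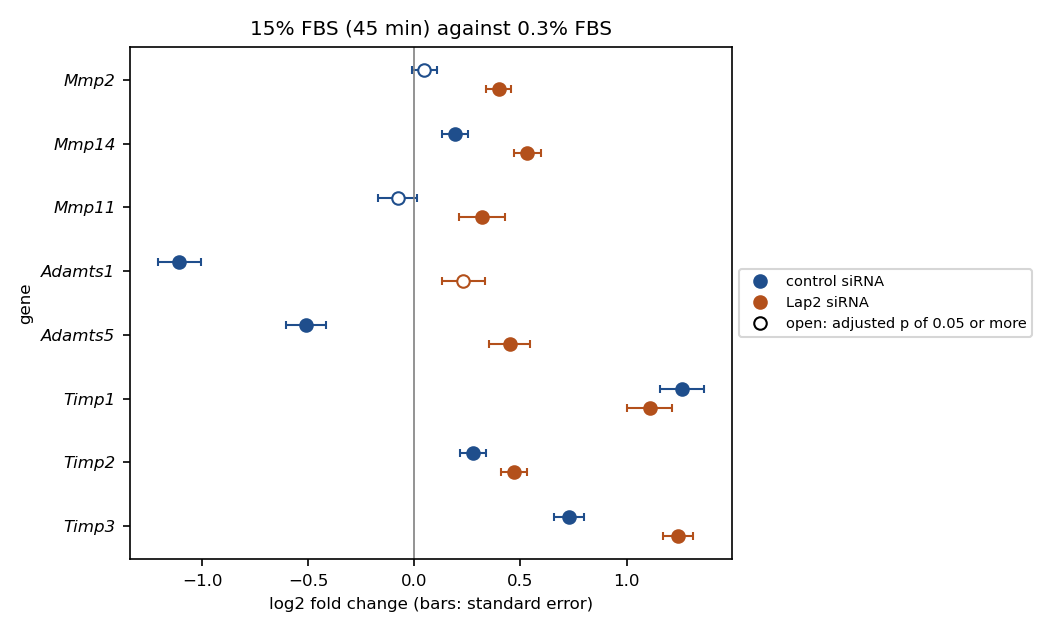
Log2 fold change of 15% FBS (45 min) against 0.3% FBS (x axis) for the 8 tested genes (y axis) with control siRNA (blue) and Lap2 siRNA (brown), 3 libraries per group. Bars are 1 standard error and open points have an adjusted p of 0.05 or more; Adamts1 and Adamts5 lie below 0 with control siRNA and above 0 with Lap2 siRNA.

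The difference between the 2 serum responses was tested as the interaction of siRNA and serum in the same fit. It was called for 5 of the 8 genes, each with the higher log2FC in Lap2-depleted cells, beside 7.09% of all genes tested called higher and 6.51% called lower. The difference was 1.34 (SE 0.14, edgeR adjusted p = 2.48e-08) for Adamts1 and 0.96 (SE 0.13, adjusted p = 3.09e-06) for Adamts5. For Timp3 it was 0.52 (SE 0.10, adjusted p = 0.000297), for Mmp2 0.35 (SE 0.08, adjusted p = 0.00357) and for Mmp14 0.34 (SE 0.09, adjusted p = 0.00805). The Mmp14 call was lost without replicate 2 of the starved control cells (0.29, adjusted p = 0.0586).

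For the 3 other genes a difference was not called. Mmp11 was at 0.40 (edgeR adjusted p = 0.0611), and it was called without replicate 2 of the starved Lap2-depleted cells (0.51, adjusted p = 0.0158) or replicate 3 of the stimulated ones (0.46, adjusted p = 0.0354). Timp2 was at 0.19 (adjusted p = 0.158) and Timp1 at -0.15 (adjusted p = 0.570), with ranges of 0.02 to 0.37 and -0.44 to 0.13 at 95% (normal approximation). The same 12 libraries give all 5 comparisons, so the smaller Lap2 siRNA effect in 15% FBS and the larger serum response in Lap2-depleted cells are 1 result seen from 2 sides.

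Per base of exon, Timp2 was the most abundant of the genes in every group. Levels per length are given as RPKM (reads per kilobase of exon, scaled for library size), with lengths from GENCODE M21 within the deposited gene spans. Serum-starved control cells had 274 ± 12.1 RPKM (SD, n = 3) of Timp2, followed by Adamts1 at 250.2 ± 12.6, Mmp2 at 215 ± 2.22, Timp3 at 147 ± 13.1, Mmp14 at 132 ± 3.38, Timp1 at 71.4 ± 5.95, Adamts5 at 31.8 ± 0.939 and Mmp11 at 14.1 ± 0.684. In this order only Timp3 and Mmp14 overlapped between neighbours. In serum-stimulated control cells Timp2 (332 ± 9.32), Timp3 (244 ± 8.99) and Mmp2 (222 ± 6.20) led, and Adamts1 was sixth at 116 ± 6.53. Timp1, at 171 ± 32.0, overlapped with Mmp14, at 150.1 ± 6.66.

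In serum-starved Lap2-depleted cells Timp2 was at 192 ± 15.9 RPKM and Mmp2 at 135 ± 5.32 (SD, n = 3). The next 4, Mmp14 at 82.1 ± 6.42, Adamts1 at 78.7 ± 6.15, Timp1 at 77.8 ± 12.9 and Timp3 at 64.8 ± 7.02, each overlapped with the next in order. After serum the Lap2-depleted cells had 266 ± 5.20 RPKM of Timp2, 178 ± 10.6 of Mmp2, 168 ± 20.3 of Timp1 and 153 ± 4.42 of Timp3, and the neighbours from Mmp2 to Timp3 overlapped. Adamts5 and Mmp11 were the lowest of the 8 in every group.

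The 5 tested proteases among the 9 genes were summed. Other expressed proteases were left out, such as Mmp9 at 24.1 RPKM and Adamts2 at 24.5 RPKM in serum-starved control cells. The summed level was 643 ± 16.4 RPKM in serum-starved control cells and 524 ± 11.5 in serum-stimulated control cells (SD, n = 3). It was 316 ± 20.0 in serum-starved Lap2-depleted cells and 415 ± 42.3 in serum-stimulated Lap2-depleted cells. The sum of the 3 TIMPs was 493 ± 22.1, 747 ± 49.8, 335 ± 13.3 and 587 ± 15.4 RPKM in the same order. The ratio of this TIMP sum to this protease sum was therefore lowest in serum-starved control cells, at 0.755 to 0.784. It was 0.996 to 1.11 in serum-starved Lap2-depleted cells, 1.35 to 1.51 in stimulated control cells and 1.31 to 1.65 in stimulated Lap2-depleted cells, where the highest value came from replicate 3. The groups of libraries overlapped only between the stimulated ones. These ratios describe transcripts, and neither protein nor enzyme activity was analysed here.

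The composition of each sum also differed. Adamts1 made up 38.9% ± 0.955 of the protease sum in serum-starved control cells and 22.1% ± 1.28, 24.9% ± 0.383 and 22.0% ± 3.52 in stimulated control, starved Lap2-depleted and stimulated Lap2-depleted cells (SD, n = 3). Timp1 made up 14.5% ± 1.54 of the TIMP sum in serum-starved control cells and 22.8% ± 2.67, 23.3% ± 4.46 and 28.5% ± 2.76 in the other groups in that order. Timp3 was at 29.9% ± 1.59, 32.7% ± 1.02, 19.3% ± 1.41 and 26.1% ± 1.03 of it.

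**Figure D4:**
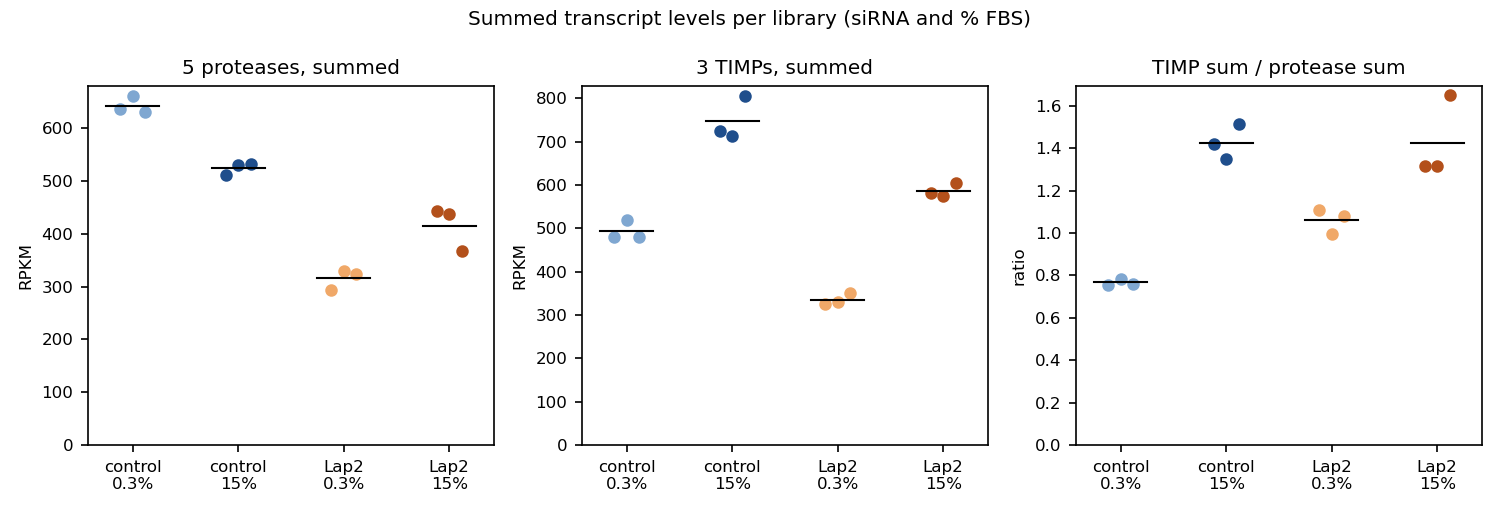
Summed RPKM of Mmp2, Mmp11, Mmp14, Adamts1 and Adamts5 (left), summed RPKM of Timp1, Timp2 and Timp3 (middle) and their ratio (right), by siRNA and FBS. Points are libraries and bars the means of 3; the ratio is lowest in serum-starved control cells, at 0.755 to 0.784.

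The wider families were described from lists of 70 further genes, of which 48 could be tested. With Lap2 siRNA in 0.3% FBS 23 of the 48 fell and 6 rose, and in 15% FBS 19 fell and 5 rose, with median log2FC of -0.35 and -0.29. Of all genes tested, 18.6% were called lower and 17.8% higher in 0.3% FBS, and 12.1% lower and 11.4% higher in 15% FBS, so the genes that rose are no larger a share of these lists than of all genes. The relatives of Adamts1 and Adamts5 leaned the same way: of 17 tested ADAMTS and ADAMTS-like genes, 11 fell and none rose in 0.3% FBS, and 8 fell and 1 rose in 15% FBS. Among those that fell were Adamts6 (log2FC -1.68 in 0.3% FBS and -1.40 in 15% FBS) and Adamts4 (-1.45 and -0.58), an aggrecanase. Adamts2, the procollagen N-proteinase, also fell in both (-1.12 and -0.26). The gene that rose in 15% FBS was Adamts9 (0.50), a versicanase, which was among those that fell in 0.3% FBS (-0.33). The SE of these values were 0.07 to 0.13.

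Of the other MMP genes 8 of 19 were tested. In 0.3% FBS 4 fell and 1 rose, beside 18.6% and 17.8% of all genes tested. In 15% FBS 1 fell, which is near the 12.1% of all genes called lower there. Mmp24 and Mmp17, among the 4, and Mmp28, which rose (log2FC 2.60), were scarce. Their means were 45.3, 13.0 and 13.5 normalized counts in serum-starved control cells. Mmp9, the second gelatinase, was at 1836, 1816 and 1745 normalized counts in serum-starved control cells and at 476, 448 and 476 in serum-starved Lap2-depleted cells, a log2FC of -1.95 (SE 0.09, edgeR adjusted p = 2.83e-18). Its log2FC was -0.85 in 15% FBS (SE 0.08, adjusted p = 5.12e-10). In control cells serum left Mmp9 at -0.01 (adjusted p = 0.946), whereas in Lap2-depleted cells it rose by 1.08 (SE 0.09, adjusted p = 4.07e-12), and this difference was called at 1.09 (adjusted p = 2.28e-08). Mmp9 thus had the same signs as Mmp2 with Lap2 siRNA and a larger size.

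In the ADAMTS family serum with control siRNA lowered 3 of the 17 other genes (Adamts7, Adamts15, Adamtsl2), near the 13.9% of all genes tested. It raised none, beside 15.6%. Adamtsl2 was near the floor, at 4, 0 and 7 counts in starved control libraries and 0 in each stimulated control library. With Lap2 siRNA 6 other genes rose, Adamts4, Adamtsl4, Adamts9, Adamts2, Adamts12 and Adamts16, and 2 fell, Adamts15 and Adamtsl5, beside 18.3% and 14.9%. The interaction was called higher for 3 of them, Adamts4 (0.86), Adamts2 (0.85) and Adamts9 (0.84), with adjusted p = 1.39e-05, 3.81e-07 and 7.33e-06, and lower for none, beside 7.09% and 6.51% of all genes tested. Over the 48 genes of the wider lists serum raised 8 and lowered 4 with control siRNA and raised 16 and lowered 5 with Lap2 siRNA, and the interaction was higher for 9 and lower for 5.

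The ADAM family holds membrane-bound sheddases and some members without protease activity, such as Adam11, Adam22 and Adam23, and all 11 listed genes were tested. With Lap2 siRNA 4 fell and 1 rose in 0.3% FBS (beside 18.6% and 17.8% of all genes tested), and 6 fell and 1 rose in 15% FBS (beside 12.1% and 11.4%). Adam19 had log2FC of -1.41 and -1.04, and Adam12 of -1.25 and -0.75, while Adam23 rose by 0.55 in 15% FBS. Serum raised 4 and lowered none with control siRNA (beside 15.6% and 13.9%), and raised 3 and lowered none with Lap2 siRNA (beside 18.3% and 14.9%).

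Among 9 tested genes for other inhibitors, activators and clearance receptors, 4 fell and 3 rose with Lap2 siRNA in 0.3% FBS. The shares of all genes tested were 18.6% lower and 17.8% higher. In 15% FBS 3 fell and 2 rose, beside 12.1% and 11.4%. Timp4, a TIMP gene outside the 9, rose in both (log2FC 2.81 and 1.83), at means of 2.52 to 21.3 normalized counts per group. Reck, a membrane-anchored MMP inhibitor, fell by 1.25 (SE 0.08) and by 0.64 (SE 0.08) on the log2 scale in the 2 conditions, with edgeR adjusted p = 2.8e-14 and 1.26e-07. Furin, the convertase that activates MT1-MMP and stromelysin-3, fell by 0.49 and 0.31. Sdc4, a cell surface proteoglycan, rose after serum, with log2FC of 2.32 with control siRNA and 2.20 with Lap2 siRNA. Of the proteoglycans that ADAMTS proteases cut, 3 of 4 were tested, and Vcan, which encodes versican, was called lower with Lap2 siRNA in 15% FBS (-0.26, SE 0.07, adjusted p = 0.00407) and higher with serum in control cells (0.20, adjusted p = 0.0227), where total-count scaling gave -0.01. Bcan, which encodes brevican, was called higher with Lap2 siRNA in 0.3% FBS (1.03, adjusted p = 0.000807) and in 15% FBS (0.87, adjusted p = 0.00882), at means of 30.0 to 65.7 normalized counts per group.

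**Figure D5:**
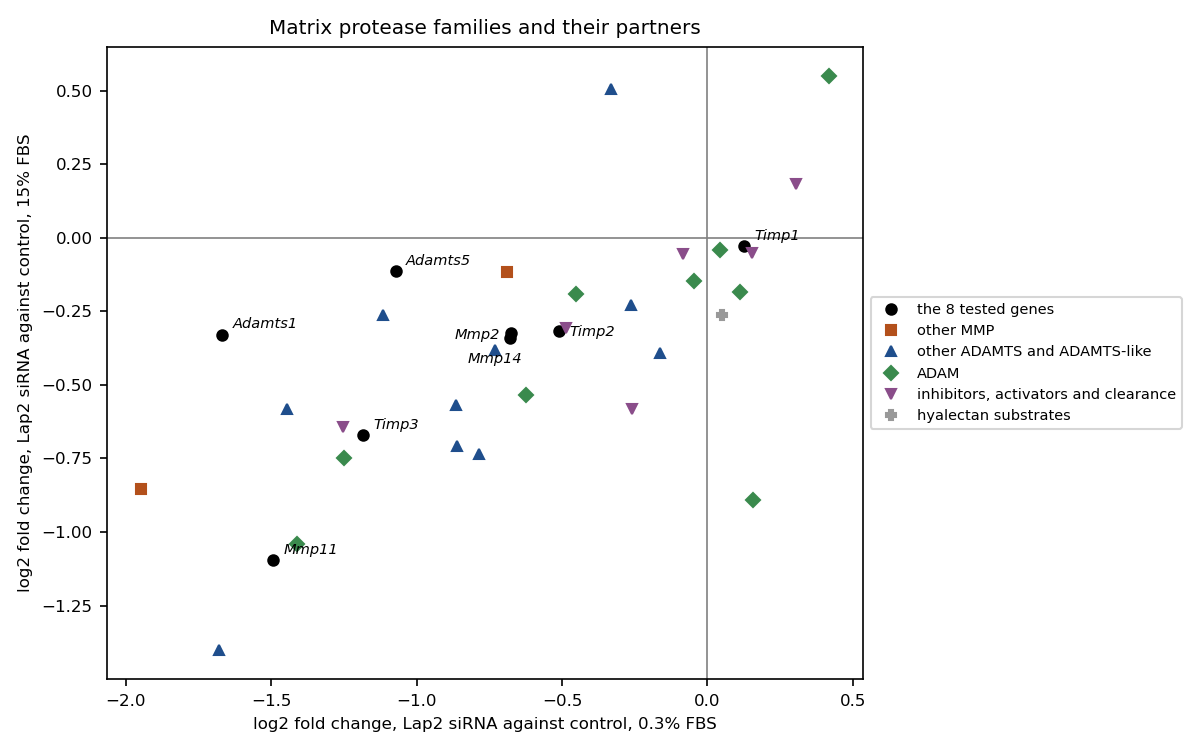
Log2 fold change of Lap2 siRNA against control siRNA in 0.3% FBS (x axis) and in 15% FBS (y axis), a point per gene, for the 8 tested genes (black, named) and the 28 genes of the wider lists whose normalized counts average 100 or more. Different libraries give the 2 axes; most points lie in the lower left part, below 0 on each axis, with Adamts1 and Adamts5 nearer to 0 on the y axis than on the x axis.

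The genes most like the members with the widest range were found by Pearson's r of log2 CPM over the 12 libraries, among 10448 other genes. The points are 4 groups of 3 libraries, so r follows mainly the group means. For Adamts1 they were Marcks (r = 0.990), Pdgfra (0.986) and Mov10 (0.978). Marcks had means of 40543, 22754, 16210 and 17924 normalized counts in starved control, stimulated control, starved Lap2-depleted and stimulated Lap2-depleted cells, the order also seen for Adamts1. For Timp3 they were Slc7a5 (0.993), Timp2 (0.991) and Shoc2 (0.990), and for Mmp11 Sgsm2 (0.995), Dpysl3 (0.992) and Cd47 (0.990). By Spearman's rho Marcks and Mov10 shared rank 2 for Adamts1, while Pdgfra was at rank 42. For Timp3 the ranks were 228 for Slc7a5 and 59 for Timp2 and Shoc2, and for Mmp11 128 for Sgsm2, 63 for Cd47 and 30 for Dpysl3, so 7 of the 9 left the first 3.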

How the data were processed

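RNA was measured in 12 libraries of NIH 3T3 cells, 3 per group, with groups and replicate numbers taken from the sample labels. The labels call the samples replicates without saying whether they are separate cultures, so p-values measure the spread between these libraries only. The authors depleted ribosomal RNA, made directional libraries, aligned the reads with TopHat2 at default settings to mm10, used HTSeq to count reads per gene, and deposited the raw counts. Versions, annotation release and strand setting are not given in the sources used here. A symbol was found for 99.3% of the identifiers, and 0 pairs of libraries were identical.

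Genes with more than 1 count in 3 or more libraries (18668) were fitted with edgeR 4.0.16 in R 4.3.3 (TMM, a mean for each of the 4 groups, quasi-likelihood test, Benjamini-Hochberg threshold of 0.05), and the fit was tested on simulated data. Depth was 18026298 to 26265253 counts per library, and 3 libraries per group limit the precision. RPKM used exon lengths from GENCODE M21, cut to the deposited span, which differs from that release for 3 of the 9 genes. The members and lists were chosen with earlier results of these data known. Outside the 9, genes were named by a rule. Per list and comparison it took up to 4 called genes with the largest absolute log2FC that average 100 or more normalized counts. It also took the 3 highest r for the 3 members of widest range. Other genes named are Tmpo, Syn3, the markers, examples of a family, and called genes that complete a count or go the other way. Some of these, such as Bcan and Adamtsl2, average under 100 normalized counts. Alternatives were DESeq2 1.42.0, total-count and upper-quartile scaling, filterByExpr, no filter, a replicate block, fits of the 2 groups compared, and each library left out.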

Additional observations from a re-analysis of the deposited data

Results flagged for a closer look

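For 5 of the 8 tested genes the effect of Lap2 siRNA differed between the serum conditions by the interaction term of the edgeR fit. The Lap2 siRNA log2FC in 15% FBS was above that in 0.3% FBS by 1.34 for Adamts1, 0.96 for Adamts5, 0.52 for Timp3, 0.35 for Mmp2 and 0.34 for Mmp14. In each case the log2FC was negative and called in 0.3% FBS and nearer to 0 in 15% FBS. For Adamts5 the value in 15% FBS, -0.11 (edgeR adjusted p = 0.455), was not called. It was 0.03 without replicate 3 of the serum-stimulated Lap2-depleted cells. The control siRNA level itself moved with serum, down for Adamts1 (log2FC -1.11) and Adamts5 (-0.51) and up for Timp3 (0.73). For Adamts1 the difference ranged from 1.22 to 1.53 when each library was left out in turn, and for Adamts5 from 0.82 to 1.11. Replicate 3 of the serum-stimulated Lap2-depleted cells, the lowest of its group for both genes, had 22838900 total counts. For Tmpo, the target of the siRNA, the difference had the other sign, at -0.79 (SE 0.11, edgeR adjusted p = 2.95e-06). Its relation to the differences above was not tested.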

How the results depend on the processing

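The 5 counts of called members, without regard to direction, stayed within 1.5 times of the reported ones under all alternatives run. Of 560 recomputed member fold changes, 535 stayed on the same side of the threshold with no called value changing sign, and 9 of these, none called before or after, had the other sign (Timp1, Adamts5, Mmp2 and Adamts1). All 7 decreases with Lap2 siRNA in 0.3% FBS kept their call and direction, and the range for Adamts1 with each library left out was -1.70 to -1.59. Of the other 25, 7 passed the threshold anew, 16 no longer passed it and 2 changed sign with a call on one side, and those that rest on 1 library or on DESeq2 stand beside their results. Of the counts over the wider lists 79 moved by over 1.5 times and 621 did not. For other named genes 75 fold changes no longer passed the threshold. Scaling to total counts moved the median log2FC of all genes by 0.11 for Lap2 siRNA in 0.3% FBS, by -0.21 for serum with control siRNA and by -0.23 with Lap2 siRNA. With control siRNA it turned the serum log2FC of Mmp2 to -0.16, Mmp14 to -0.0167, Furin to -0.0388 and Vcan to -0.0053, and with Lap2 siRNA that of Adam15 to -0.046, so that 2 members were higher (Timp1, Timp3) and 4 lower with control siRNA. It moved the genes called higher and lower from 3330 and 3480 to 4692 and 2638 for Lap2 siRNA in 0.3% FBS, from 2125 and 2250 to 3471 and 1678 in 15% FBS, from 2915 and 2597 to 1632 and 5847 for serum with control siRNA and from 3420 and 2777 to 1658 and 5951 with Lap2 siRNA. Upper-quartile scaling gave 2183 and 3878 and then 2383 and 3942 for the serum comparisons, and took the calls of Mmp14 with control siRNA (0.10, adjusted p = 0.273) and Mmp11 with Lap2 siRNA (0.21, adjusted p = 0.144). The cause was not tested. With no filter Adamts1 was called higher with serum and Lap2 siRNA (0.22, adjusted p = 0.00288) and the interaction of Mmp11 was called (0.39, adjusted p = 0.0481). In the fit of the 2 groups alone the serum call of Mmp11 with Lap2 siRNA was lost (0.31, adjusted p = 0.0690). Same-numbered libraries did not deviate together: r was -0.12 to 0.10 over 18 pairs, and 3 of 12 libraries correlated best with their own number. In the fit with the replicate block the serum response of Adamts1 with Lap2 siRNA was 0.21 (adjusted p = 0.0467), 8 members were called there, and no other call of a member changed.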
